A study of Mus musculus with 4 samples.

Results

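The cytosolic ribosomal protein genes encode the proteins of the large and the small subunit of the ribosome that works in the cytosol. Their members here were the peaks of open chromatin that the authors assigned to a symbol made of Rpl or Rps, digits and an optional trailing letter, or to Rpsa, Rplp0, Rplp1 or Rplp2. Ribosomal S6 kinases (Rps6k) and pseudogene symbols were left out. The rule took 238 of 80881 peaks, at 75 genes, of which 45 have large-subunit (Rpl) and 30 small-subunit (Rps) symbols. RefSeq lists 74 of them as protein-coding, all but Rps4l. The rule used names only, and no measured value.

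Open chromatin was profiled by ATAC-seq. A transposase cuts and tags DNA that is not wrapped up in nucleosomes, so that reads pile up as peaks over open regions. The cells, called KPC cells in the labels, are a line from a KP mouse lung adenocarcinoma (LUAD) that was transduced with Cas9 and selected with puromycin. All cells also carried a CRISPR activation vector of the SAM type (lenti-SAM-Hygro), with a guide RNA against Malat1 (group mA2 dRNA) or against luciferase (group Con dRNA). Malat1 is a long noncoding RNA of the nucleus, and luciferase is not a mouse gene. Each group had 2 libraries from replicate cell samples of this 1 line, 4 in all. The series asks how raised Malat1 changes chromatin accessibility, and ATAC-seq does not measure the level of Malat1 RNA.

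The authors' deposited table gives, for each peak in mm10, the mean normalized read count of each group, called reads below. It also gives the authors' p-value, and their p adjusted over all 80881 peaks. A peak was called when that adjusted p was under 0.05. Differences are log2 of the mA2 dRNA mean minus log2 of the Con dRNA mean. The 4 columns of per-library values have names that match no sample label and were not used, so no spread between libraries, no depth of a library and no error of a mean can be given. Over all peaks the median difference was 0.09. As a check of the cell type, promoter peaks were present at Cdh1, Krt8 and Krt18 of epithelium and at Col1a1 of fibroblasts. No promoter peak was assigned to Epcam, Nkx2-1 or Sftpc of lung epithelium, to Ptprc, Cd3e or Lyz2 of leukocytes, to Pecam1 or Cdh5 of endothelium, or to Pdgfra of fibroblasts.

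Ribosomes are built from ribosomal RNA and one copy of nearly every ribosomal protein, and proliferating cells transcribe the genes of these proteins at a high and even rate. Most of these genes start transcription at a C within a short tract of pyrimidines (C and T), the 5′ TOP motif, through which mTOR signalling and LARP1 control translation of their mRNAs. Their promoters are compact, often lack a TATA box, and in mammals are bound by factors such as GABP of the ETS family, YY1 and Sp1. Loss of 1 copy of several of them causes Diamond-Blackfan anaemia in humans, and free Rpl5 and Rpl11 bind Mdm2 and so activate p53.

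The promoter sequences of members that the results turn on are shown here to be read against this layout, which they share only in part. The sequences are RefSeq promoters of GRCm38.p6, the assembly that mm10 names, read 5′ to 3′ on the strand of the gene. Each holds 60 bases before the annotated start site and 30 from it on. Capitals mark the longest run of C and T that falls within 30 bases of the start, which has 10 bases at Rplp2 and 4 to 7 at the others. The windows of Rplp0 and Rpl36a hold the letters TATAAA downstream of the annotated start site, not upstream of it. Rps21, Rpl37 and Rpl27 had some of the strongest promoter peaks, Rplp0 and Rplp2 encode stalk proteins, and Rps4x and Rpl36a are on the X chromosome. The windows lie inside the peak of their gene, except that of Rplp2, which extends past its peak.
Rps21, chr2:180257319-180257408, plus strand: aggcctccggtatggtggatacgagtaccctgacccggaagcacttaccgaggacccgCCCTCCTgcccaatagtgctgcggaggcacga
Rpl37, chr15:5116553-5116642, plus strand: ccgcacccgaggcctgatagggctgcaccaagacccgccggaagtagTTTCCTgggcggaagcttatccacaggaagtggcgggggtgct
Rpl27, chr11:101442185-101442274, plus strand: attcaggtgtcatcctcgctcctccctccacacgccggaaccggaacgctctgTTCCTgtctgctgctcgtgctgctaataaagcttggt
Rplp0, chr5:115559407-115559496, plus strand: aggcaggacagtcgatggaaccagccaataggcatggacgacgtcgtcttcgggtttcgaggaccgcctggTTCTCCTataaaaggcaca
Rplp2, chr7:141447591-141447680, plus strand: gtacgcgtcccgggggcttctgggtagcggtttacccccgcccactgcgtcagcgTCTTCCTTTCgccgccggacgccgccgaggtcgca
Rps4x, chrX:102189362-102189451, minus strand: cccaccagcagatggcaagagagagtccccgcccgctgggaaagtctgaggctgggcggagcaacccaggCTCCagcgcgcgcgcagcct
Rpl36a, chrX:134585594-134585683, plus strand: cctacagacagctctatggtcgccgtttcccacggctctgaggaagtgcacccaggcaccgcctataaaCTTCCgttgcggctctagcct

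A second set is shown because the 8 letters TCTCGCGA, a near-palindrome found at some promoters without a TATA box, were much more common in ribosomal protein promoters than in others. Capitals mark these letters. The peaks over these promoters held 631 reads with mA2 dRNA and 668 with Con dRNA at Rpl10a, 428 and 444 at Rps28, and 448 and 430 at Rps6.
Rpl10a, chr17:28328505-28328594, plus strand: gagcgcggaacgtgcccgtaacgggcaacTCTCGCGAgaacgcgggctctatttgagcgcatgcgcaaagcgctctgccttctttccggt
Rps28, chr17:33824533-33824622, minus strand: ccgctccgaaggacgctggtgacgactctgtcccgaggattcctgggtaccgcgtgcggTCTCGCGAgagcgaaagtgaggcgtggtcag
Rps6, chr4:86857338-86857427, minus strand: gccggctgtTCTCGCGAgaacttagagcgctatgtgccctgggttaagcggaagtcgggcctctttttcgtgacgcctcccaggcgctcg

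RefSeq promoter sequences were found for 61 genes that fit the rule, in 73 windows of 300 bases, since some genes have several start sites whose windows overlap. A run of at least 8 pyrimidines within 30 bases of the start site was present in 37 of the 73 windows, or 50.7%, against 22.9% of all 32851 RefSeq windows. Limited to the 12117 windows that overlapped a peak in these cells, the share over all genes was 20.4%. The median longest run was 8 bases in ribosomal protein windows and 5 in all windows. The start base was C or T in 42.5% of ribosomal protein windows and in 25.4% of all windows over a peak. TCTCGCGA or its reverse complement TCGCGAGA was found in 11 of 73 windows, at 10 genes. That is 15.1%, against 0.995% of all windows and 2.29% of those over a peak. Among the 64 ribosomal protein windows over a peak, the shares were 51.6% for the run, 45.3% for the start base and 17.2% for these 8 letters.

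Other promoter letters were searched on both strands of the 300 bases, apart from TATAAA, which was searched on the strand of the gene. The core of an ETS site, CCGGAAG, was present in 35.6% of ribosomal protein windows, against 8.86% of all windows and 18.5% of windows over a peak. AAGATGG, the core of a YY1 site, was in 15.1%, against 6.34% and 7.16%. The GC box GGGCGG, a site for Sp1, was in 57.5% of ribosomal protein windows, above the 35.7% of all windows. Limited to windows over a peak, it was in 60.9% of the 64 ribosomal protein windows, below the 65.9% over all genes. The E-box CACGTG, a site for Myc, was in 11.0% of ribosomal protein windows, 7.15% of all windows and 10.2% of windows over a peak. TATAAA had shares of 8.22%, 8.32% and 3.95% in the same order. Among the 64 ribosomal protein windows over a peak, CCGGAAG was in 37.5%, AAGATGG in 15.6%, CACGTG in 10.9% and TATAAA in 7.81%. A match of letters is not evidence that a factor was bound.

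**Figure D1:**
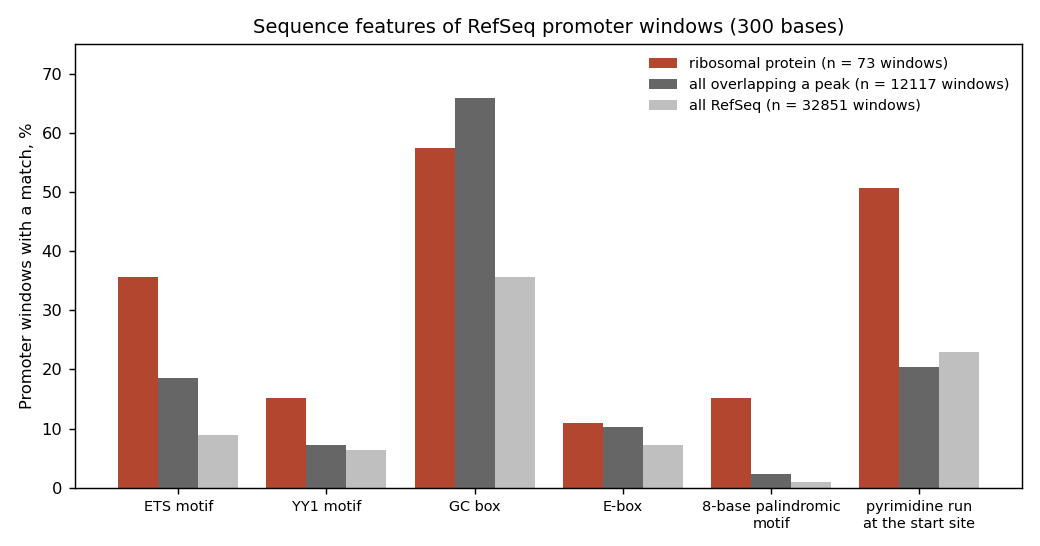
Share of RefSeq promoter windows of 300 bases (vertical axis, percent) with each sequence feature. The sets are 73 windows of ribosomal protein genes (64 of them over a peak), 12117 windows of any gene that overlap a peak, and all 32851 windows. The pyrimidine run (50.7% against 20.4% of windows over a peak) and the near-palindrome TCTCGCGA (15.1% against 2.29%) were more common at ribosomal protein genes. Among the 64 ribosomal protein windows over a peak, these shares were 51.6% and 17.2%. The GC box was not more common than at other promoters over a peak. The axis label 8-base palindromic motif stands for TCTCGCGA.

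The peaks over ribosomal protein promoters were strong, and their group means lay close together. Of the 238 peaks, 73 were in the authors' promoter class, which reaches 1 kb from a start site, and these belonged to 69 genes. Over both groups their median was 438 reads, with quartiles of 288 and 593, against a median of 272 over all 13620 promoter peaks, and 56 of the 73 lay above that value. None of the 73 was called: 0 were higher, beside 1.20% of all promoter peaks, and 0 lower, beside 0.220%, which makes 1.42% of all promoter peaks in either direction. By unadjusted p under 0.05, 1 of the 73 was picked out, beside 7.18% of all promoter peaks. In the authors' deposited table the adjusted p of the 73 ran from 0.378 upward. The sources used here do not name the test behind these p-values.

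The largest promoter peak was that of Rps21, a small-subunit protein, with 1758 reads in mA2 dRNA and 1579 in Con dRNA. Rpl37, a large-subunit protein that binds zinc, had 1359 and 1248 reads. Both had the higher mean with mA2 dRNA, by at most 1.11-fold. Rpl27 held 1000.2 and 979 reads, and Rpl13a, a large-subunit protein also known from the GAIT complex that silences inflammatory mRNAs, held 988 and 942. Across the 63 promoter peaks that cover the assigned start site, the mean over both groups varied 10.9-fold between Rps21 and Rpl32.

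The stalk proteins of the large subunit, which recruit the GTPases of elongation, also had strong and near-equal peaks. Rplp0 held 823 reads with mA2 dRNA and 833 with Con dRNA, Rplp1 540 and 545, and Rplp2 610 and 577. Rpsa, a small-subunit protein also known as the laminin receptor, held 399 and 370. None of these 4 differences exceeded 1.08-fold, and the authors' deposited table has their adjusted p between 0.963 and 0.997.

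The weakest promoter-class peaks were those not on the start site. Rps10 had 73.7 and 51.2 reads 0.668 kb upstream, Rpl3 91.4 and 53.4 reads 0.805 kb upstream, and Rpl10 92.1 and 116 reads 0.325 kb downstream. Rpl36 had 124 and 98.5 reads 0.964 kb upstream, and Rps14 had 124 and 118 reads 0.515 kb downstream. Some other peaks off the start site were strong, such as that of Rpl30 0.129 kb downstream, with 726 and 678 reads. The first number of each pair is the mean with mA2 dRNA. Rpl10, Rpl36 and Rps14 had 2 promoter-class peaks each. The Rpl3, Rps10 and Rps14 peaks, 4 in all, lay over 1 kb from the RefSeq span of these genes, so the authors' start site there is not the RefSeq one. The peak over the RefSeq start site of Rps10 is in the authors' 5′ UTR class. It held 478 reads with mA2 dRNA and 446 with Con dRNA, a difference of 0.10.

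**Figure D2:**
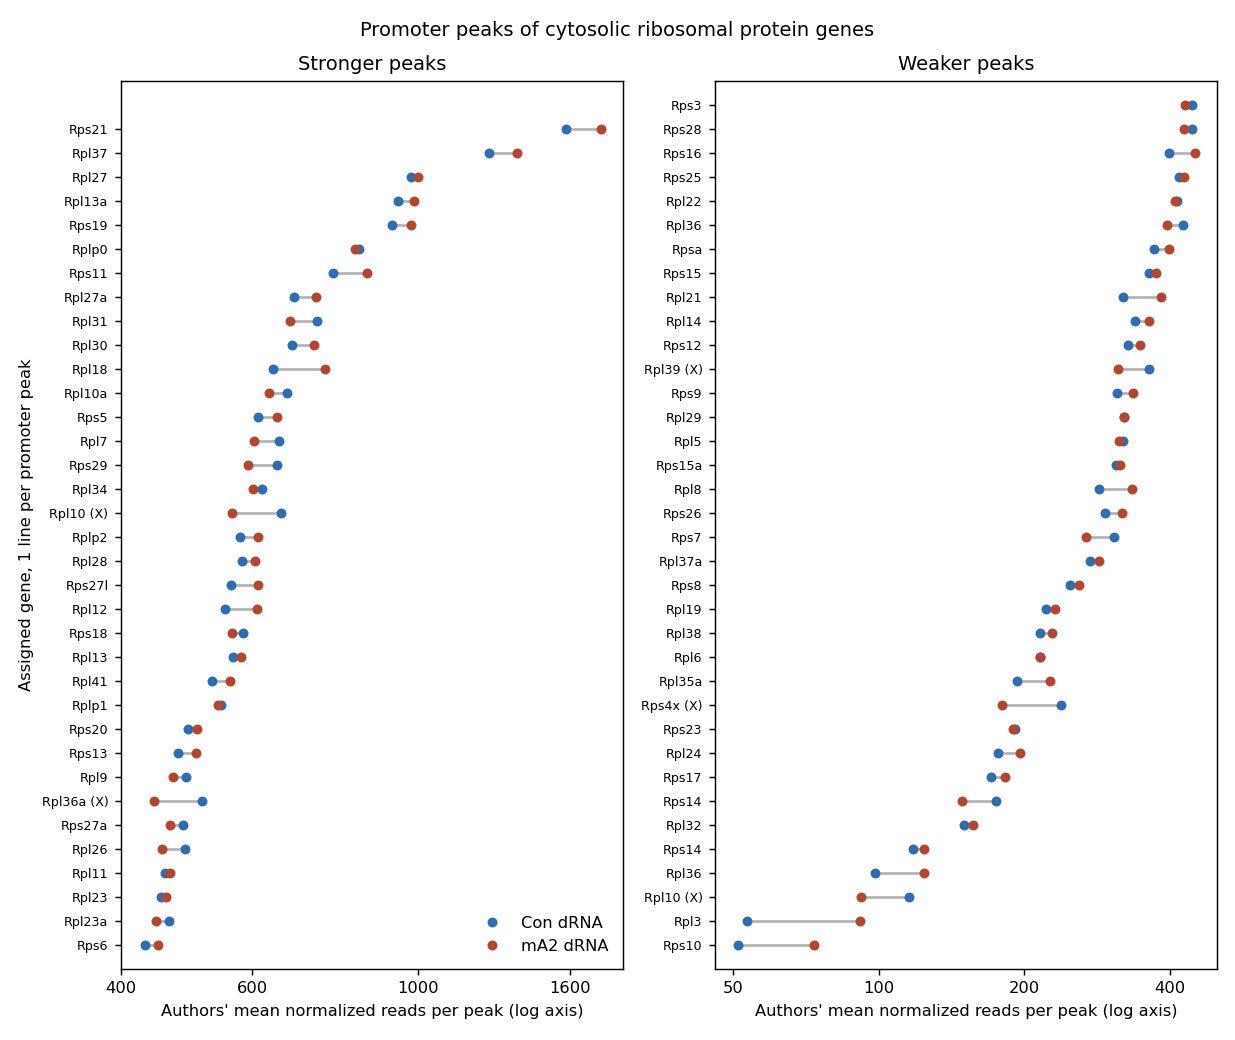
Authors' mean normalized reads (horizontal log axes, different in the 2 panels) of 71 promoter peaks of ribosomal protein genes, 1 line per peak, with a blue point for Con dRNA and a red point for mA2 dRNA, and (X) for genes on the X chromosome. The points of a line lie close together at the strong peaks, from Rps21 at 1758 and 1579 reads downward, and farthest apart at Rpl3 and Rps10.

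The median difference over the 73 promoter peaks was 0.04, with quartiles of -0.05 and 0.10, against 0.07 over all promoter peaks. The mean was higher with mA2 dRNA in 48 of 73, or 65.8%, close to the 63.9% of all promoter peaks. This direction rests on the scaling: relative to the median of all peaks, 21 of the 73 were higher and 52 lower, with a median of -0.05. The 2 group means lay within 1.3-fold of each other in 70 of 73 peaks, or 95.9%, against 84.7% of all promoter peaks. Strong peaks as a whole had such close means: among promoter peaks of any gene with at least 288 reads, the share was 96.7%. The 3 exceptions were Rpl3 and Rps10 at peaks off the start site, and Rps4x at its start site.

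Genes of the large and the small subunit had similar medians at promoters. The median difference was 0.03 over 44 promoter peaks of the large subunit and 0.06 over 29 of the small subunit. Of either, 0 peaks were called, beside 1.42% of all promoter peaks. By unadjusted p under 0.05, 1 large-subunit and 0 small-subunit promoter peaks were picked out, beside 7.18% of all promoter peaks. The difference between the subunits was not tested.

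Promoter peaks with and without a sequence feature differed little for some features and more for others. Each value below is a median over RefSeq windows that overlap a peak, with the peak's reads over both groups. The 11 windows with TCTCGCGA had 589 reads and a difference of 0.04, and the 53 without had 458 and 0.03. The 24 windows with CCGGAAG had 559 reads and a difference of 0.05, and the 40 without had 447 and 0.03. The 33 windows with a pyrimidine run had 462 reads and a difference of 0.03, and the 31 without had 478 and 0.06. The 39 windows with a GC box had a difference of 0.07 and the 25 without 0.0012. The 10 windows with AAGATGG had 0.09 and the 54 without 0.03, and the 5 with TATAAA had -0.05 and the 59 without 0.04. In reads, the windows with a GC box had 586 and those without 368, the widest gap in reads among the features with at least 20 windows on each side. The windows with AAGATGG had 309 reads and those without 478, and CACGTG had 456 against 465. For TATAAA the reads were 478 against 462, and for a start base of C or T 572 against 456. No test was made of these medians, since windows of a gene share bases and peaks.

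Ribosomal protein promoters on the X chromosome had the lower mean with mA2 dRNA, as did most promoters of that chromosome. These peaks were singled out after their values were seen. Rps4x, the X copy of a small-subunit protein, held 180 reads with mA2 dRNA and 238 with Con dRNA. Rpl39, a large-subunit protein at the exit tunnel, held 313 and 362. Rpl36a, also of the large subunit, held 442 and 513. The main peak of Rpl10, a late-joining protein of the large subunit, held 563 and 655, and its second peak 92.1 and 116. All 5 were lower, by a median of -0.22, and 0 were called. In the authors' deposited table their adjusted p lay between 0.624 and 0.941. Of all 391 promoter peaks on X, 309 were lower, with a median of -0.17, and 3 were called, 2 of them higher and 1 lower. On autosomes, the median was 0.06 over 68 ribosomal protein promoter peaks and 0.07 over all 13229 promoter peaks. The 5 peaks were also lower relative to the median of all peaks of the X chromosome.

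**Figure D3:**
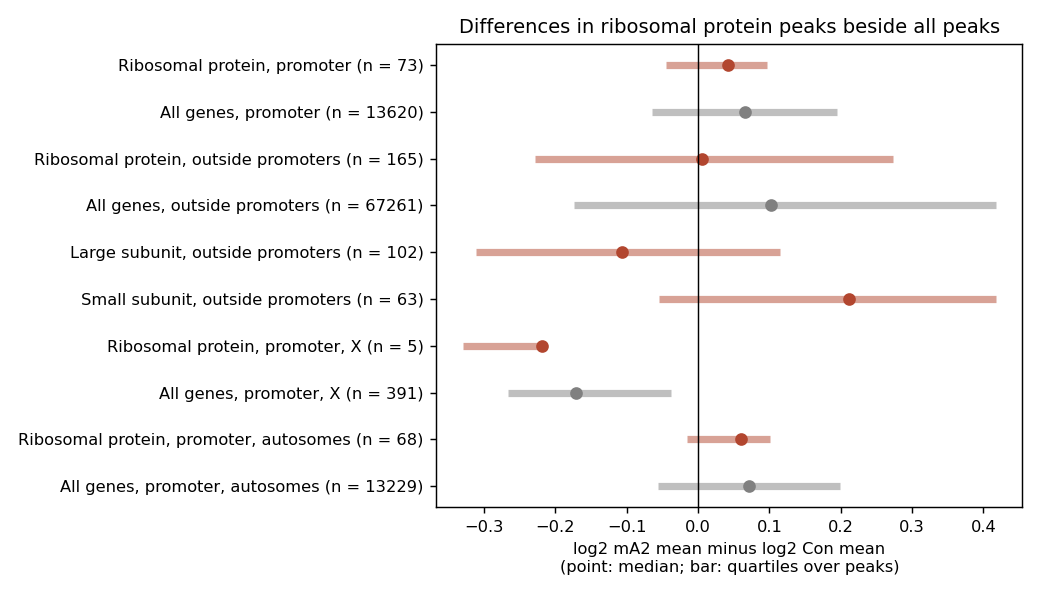
Median (point) and quartiles (bar) of the difference over peaks (horizontal axis, log2 mA2 dRNA mean minus log2 Con dRNA mean) in sets of ribosomal protein peaks (red) and in all peaks of the same kind (grey), with the number of peaks in each. Promoters of ribosomal protein genes on X sit at -0.22 and all promoters on X at -0.17, both below 0, while the autosomal sets sit at 0.06 and 0.07.

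Several ribosomal protein genes had a promoter peak that the authors assigned to a neighbour. RefSeq lists 81 protein-coding genes that fit the rule, and 7 of them, Rpl15, Rpl32l, Rpl3l, Rpl4, Rpl7a, Rps2 and Rps27, had no peak under their own symbol. Of the 61 genes with a RefSeq promoter sequence, 55 had a peak over it. For 6 of those 55, the peak carried another symbol. The peak over the Rps2 promoter is assigned to the small nucleolar RNA Snora78 and held 1112 reads with mA2 dRNA and 1094 with Con dRNA. The Rpl15 promoter peak, assigned to Nkiras1, held 837 and 823. The Rpl7a promoter peak, assigned to Med22, held 734 and 716. These 3 lie within the upper quartile of the 73 member promoter peaks and have differences of 0.02 to 0.04. The Rpl35 peak, under Arpc5l, held 589 in both groups. An Rpl18 start site under Sphk2 held 435 and 481, and the Rps27 peak under Rps27rt held 427 and 504.

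The genes with a RefSeq promoter and no peak over it were Rpl10l, Rpl32l, Rpl38, Rpl39l, Rpl3l and Rpl4. Rpl10l, Rpl39l and Rpl3l are paralogs expressed mainly in testis or muscle. Rpl38 and Rpl4 are core ribosomal genes, and Rpl38 does have a promoter-class peak under its own symbol, with its edge just past that RefSeq window and 229 reads with mA2 dRNA against 216 with Con dRNA. A missing peak in the table does not show that the region was closed.

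Outside the authors' promoter class, 165 peaks carried a ribosomal protein symbol, and 4 of them were called. The calls were 3 higher, at Rps24, Rpl3 and Rplp1, beside 2.43% of all peaks outside promoters, and 1 lower, at Rps15a, beside 0.565% lower. Over all 238 members this made 4 calls, beside 2.73% of all peaks (2.23% called higher and 0.507% called lower). By unadjusted p under 0.05 there were 12 among the members, beside 11.7% of all peaks. Of these, 11 lay outside promoters, where the share over all peaks was 12.6%. The share of members with a difference of over 1 in either direction was 2.94%, or 7 of 238, against 7.67% of all peaks. Outside promoters it was 4.24% against 8.74%, and at promoters 0% against 2.35%. Members also held more reads over both groups, with a median of 134 against 73.1. The gap was smaller outside promoters, where the medians were 73.0 and 60.7. Few of the peaks outside promoters have their centre in the gene they are named for. By the centre, 3 of the 165 lie in the RefSeq span of the assigned gene, 77 in the span of another gene only, and 85 in none. The 5′ UTR-class peaks of Rps10 and Rps24 are not among these 3, but cover RefSeq start sites of their genes.

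**Figure D4:**
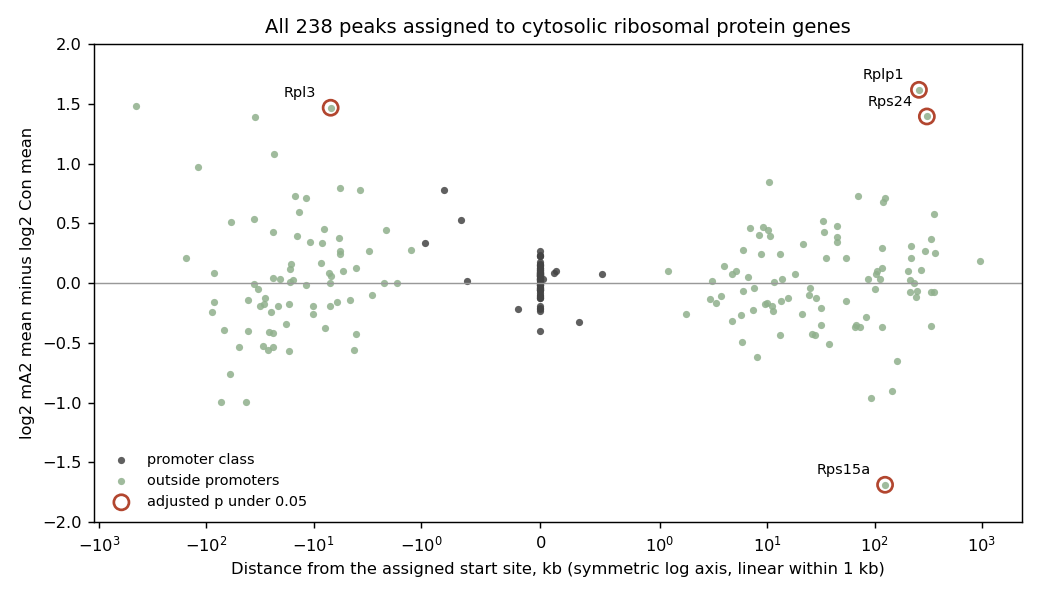
Difference of each of the 238 peaks (vertical axis, log2 mA2 dRNA mean minus log2 Con dRNA mean) against the distance from the assigned start site (horizontal axis, kb, symmetric log scale that is linear within 1 kb, negative upstream). Promoter peaks (dark) crowd around 0, and the 4 called peaks (red circles) lie 6.96 kb upstream at Rpl3 and 125, 259 and 306 kb downstream at Rps15a, Rplp1 and Rps24.

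The smallest p among members belonged to a peak assigned to Rps24 (gene ID 20088), a small-subunit protein mutated in some patients with Diamond-Blackfan anaemia. The peak, chr14:24793614-24794014, lies 306 kb downstream of the assigned start site, in the RefSeq span of the predicted gene Gm31838 and 297 kb from the span of Rps24. It held 488 reads with mA2 dRNA and 186 with Con dRNA, 2.63-fold higher, and the authors' deposited table gives it an adjusted p of 1.06e-04. A peak 13.4 kb further on, assigned to Gm32123, held 464 and 211 reads, and its unadjusted p is 0.114 in the authors' deposited table. On the other side, 14.5 kb away, a peak assigned to Rps24 held 728 and 605. Both neighbours had the higher mean with mA2 dRNA, and neither was called. The 4 other peaks under Rps24 held at most 276 reads in either group, with differences from -0.17 to 0.68. The median over chromosome 14 as a whole was 0.06.

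At Rpl3 (gene ID 27367), a protein next to the catalytic centre of the large subunit, all 4 assigned peaks were higher with mA2 dRNA. The called peak, chr15:80098825-80099225, lies in an intron of Syngr1, a synaptic vesicle protein, and 15.4 kb from the RefSeq span of Rpl3, chr15:80077781-80083406. It held 199 reads with mA2 dRNA and 72.0 with Con dRNA, 2.76-fold higher, and the authors' deposited table gives it an adjusted p of 6.46e-04. The other 3 held 91.4 and 53.4, 53.4 and 31.2, and 69.6 and 40.0 reads, and none was called, with adjusted p from 0.378 to 0.665 in the authors' deposited table. The differences of the 4 peaks ran from 0.77 to 1.47, and stayed above 0 relative to the median of chromosome 15, which was 0.21. All 4 lie 9.27 kb or more outside the RefSeq span of Rpl3. The peak over the upper end of that span, chr15:80083191-80083591, is assigned to the small nucleolar RNA Snord43, and held 805 reads with mA2 dRNA and 775 with Con dRNA. Peaks assigned to Syngr1 itself held 97.2 and 85.2 reads in an intron and 82.8 and 73.9 at a promoter. Of 8 peaks within 25 kb of the called one, 7 had the higher mean with mA2 dRNA, with a median of 0.28, and 0 were called.

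The called Rplp1 peak (gene ID 56040), chr9:61655416-61655816, lies 259 kb downstream of the assigned start site in no RefSeq gene. It held 221 reads with mA2 dRNA and 72.2 with Con dRNA, 3.07-fold higher, and the authors' deposited table gives it an adjusted p of 0.00647. Its neighbourhood did not move with it. The 3 peaks within 25 kb, 2 under Rplp1 and 1 under Tle3, had differences of -0.07 to -0.16. Rplp1 carried 26 peaks, the most of any ribosomal protein gene, strung over the 259 kb. Of these, 12 were higher and 14 lower, and 6 higher and 20 lower relative to the chromosome 9 median of 0.13. The strongest of them, 106 kb from the start site in the span of Gm34828, held 618 and 576 reads, more than the Rplp1 promoter with 540 and 545.

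The single lower call was at Rps15a (gene ID 267019), a small-subunit protein. The peak, chr7:117990649-117991049, lies 125 kb downstream of the assigned start site in no RefSeq gene. It held 32.9 reads with mA2 dRNA and 106 with Con dRNA, 3.22-fold lower, and the authors' deposited table gives it an adjusted p of 0.00623. The peak next to it, 145 kb from the start site, held 69.8 and 130 reads, where the authors' deposited table has an unadjusted p of 0.00950 and an adjusted one of 0.169. A further peak, 93.4 kb from the start site, held 20.4 and 39.9 reads and was not called. These 3 consecutive Rps15a peaks, from the far side inward, had differences of -0.90, -1.69 and -0.96. The other 11 of the 14 Rps15a peaks lay between -0.36 and 0.58, among them the promoter peak with 315 and 310 reads. The median over chromosome 7 as a whole was 0.15.

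**Figure D5:**
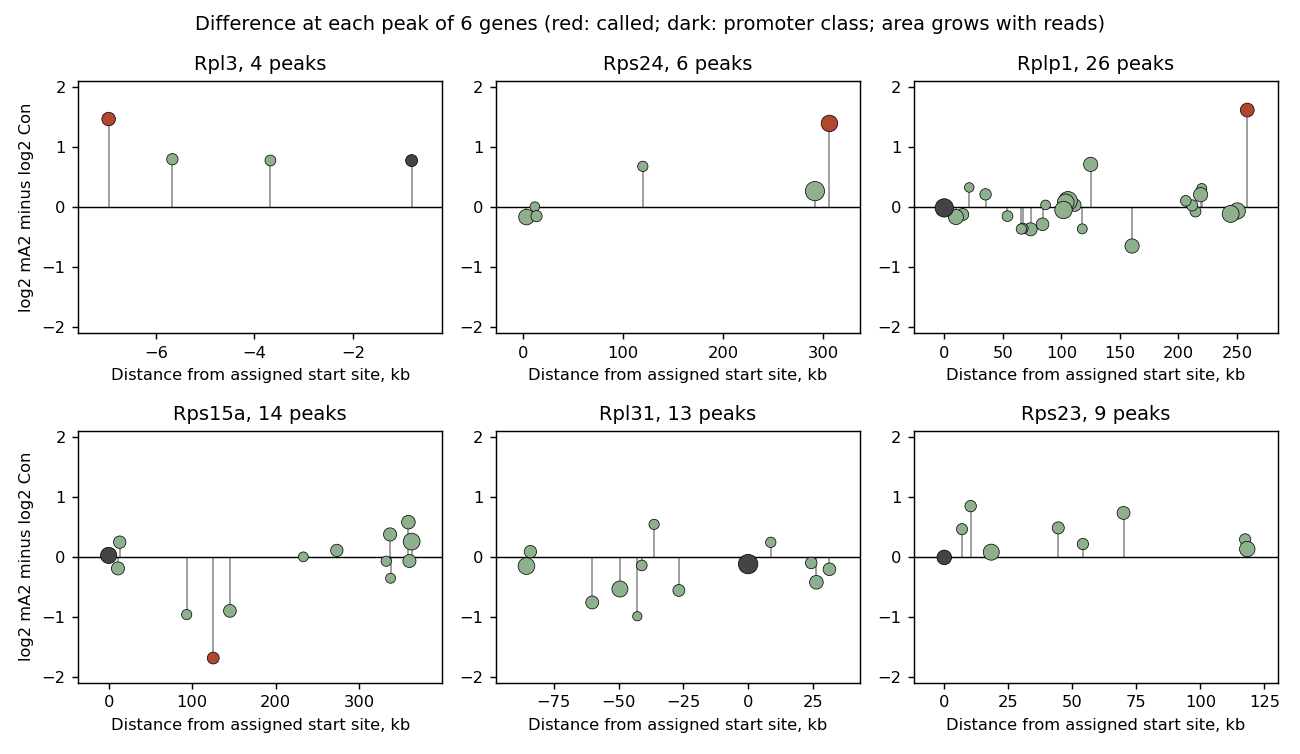
Difference of each peak (vertical axes, log2 mA2 dRNA mean minus log2 Con dRNA mean) against its distance from the assigned start site (horizontal axes, kb, own scale per panel) for 6 genes, with called peaks in red, promoter-class peaks dark and the area of a point growing with the reads. The called Rplp1 peak at 1.62 stands among neighbours near 0, while the called Rps15a peak at -1.69 has a lower peak on each side and the 4 Rpl3 peaks are all above 0.

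The other peaks with an unadjusted p under 0.05 were not called, and 4 of these 8 lie in introns of unrelated genes. A peak 450 kb upstream of Rpl10l, in the cell adhesion gene Mdga2, held 46.4 reads with mA2 dRNA and 16.7 with Con dRNA. A peak 35.6 kb from Rps4l, in Tmtc1, held 37.2 and 14.2. A peak under Rps27a, which encodes ubiquitin fused to a small-subunit protein, lies in Clhc1 and held 40.4 and 19.1. These 3 had under 50 reads in each group. An intergenic peak 9.20 kb from the Rpl19 start site held 274 and 198 reads. Lower means with mA2 dRNA but no call were found 60.2 kb upstream of Rpl31, in the circadian factor gene Npas2, with 79.1 and 134 reads. A peak 73.4 kb upstream of Rpl34 held 36.1 and 72.1 reads, and its unadjusted p is 0.118 in the authors' deposited table.

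Other genes with many distal peaks differed in the direction of their means. They had no called peak, beside 2.73% of all peaks, and with 13 or fewer peaks per gene a lack of calls says little. Rps23, a protein of the decoding centre, had 9 peaks, mostly in the autophagy gene Atg10, of which 8 were higher, with a median of 0.29. The median over all peaks of chromosome 13 was 0.23, and relative to it 5 were higher and 4 lower. The Rps23 peak with the smallest p held 133 and 80.2 reads. Rpl11 had 6 of 8 peaks lower, with a median of -0.33 against 0.10 for chromosome 4, and Rpl5, its partner in the 5S particle, had 6 of 7 lower, with a median of -0.26 against -0.01 for chromosome 5. Rpl31 had 10 of 13 lower, spread over Npas2 on its upstream side and Tbc1d8 downstream. Rps14 had 10 peaks, 4 higher and 6 lower. The promoter peaks of these genes held 190 and 191 reads at Rps23, 466 and 458 at Rpl11, 313 and 321 at Rpl5, and 673 and 733 at Rpl31, mA2 dRNA first.

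Outside promoters the median difference was 0.0061 over the 165 peaks, against 0.10 over all such peaks. With 84 higher and 81 lower, the means were split evenly, and relative to the median of all peaks 66 were higher and 99 lower. The large subunit had 102 of these peaks with a median of -0.11, 41 higher and 61 lower, and the small subunit 63 with a median of 0.21, 43 higher and 20 lower. These medians kept their signs relative to all peaks, to the chromosome and to peaks of like abundance, where the small-subunit median fell to 0.06 relative to the chromosome. Peaks of 1 gene are neighbours and share a region, and Rplp1, Rpl31 and Rpl11 hold many of the large-subunit peaks, so the difference between subunits was not tested.

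The counts of calls in other gene lists of the same pathway stand beside 2.73% of all peaks called, with 2.23% higher and 0.507% lower. Mitochondrial ribosomal proteins, which form the separate ribosome of mitochondria, had 4 higher and 0 lower calls among 201 peaks at 71 genes, with a median of 0.07. The strongest were far from their gene, at peaks assigned to Mrpl3 181 kb upstream with 152 against 9.81 reads and 152 kb upstream with 145 against 24.8, and at Mrps30 with 82.8 against 28.7. Among 150 peaks of translation factors, at 49 of 50 genes, 4 were called higher and 0 lower, and the median was 0.09. The leading 3 were assigned to Eif3h, a subunit of the initiation factor that binds the small subunit, and lay 66.4 to 155 kb from its start site, with 845 against 541, 122 against 37.3 and 159 against 70.7 reads. The Mrpl3, Mrps30 and Eif3h peaks named here were all called. No promoter peak of either list was called, 0 of 65 and 0 of 47, beside 1.42% of all promoter peaks. By unadjusted p under 0.05 there were 1 and 0, beside 7.18%.

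Genes of ribosome assembly had 1 higher and 0 lower calls among 169 peaks at 58 of 60 genes, beside 2.73% of all peaks. Their median difference was 0.08. The call was at the promoter of Nolc1, a nucleolar chaperone of small nucleolar particles, which held 969 reads with mA2 dRNA and 706 with Con dRNA, and the authors' deposited table gives it an adjusted p of 0.0134. A peak 17.3 kb upstream of Wdr75 held 69.3 and 25.7 reads, and was not called. Ubtf, the activator of RNA polymerase I, had a peak 21.4 kb upstream with 105 and 174 reads that was not called. Host genes of small nucleolar RNAs, which also carry 5′ TOP motifs, had 1 higher and 0 lower calls among 28 peaks at 12 genes, beside the same 2.73% of all peaks, with a median of -0.0043. That call was the promoter of Snhg18, with 348 and 177 reads, to which the authors' deposited table gives an adjusted p of 0.00580. Components and paralogs that the naming rule does not take, such as Rack1 and Rpl22l1, had 0 calls among 16 peaks at 6 of 7 genes, with a median of -0.10. By unadjusted p under 0.05 there was 1 of these 16, beside 11.7% of all peaks. It was at Rpl22l1, with 21.7 and 48.9 reads.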

How the data were processed

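Peaks come from the authors' deposited table, with mm10 as the build per the submitters' processing notes. Those notes also name MACS2, DiffBind, ChIPseeker, Bowtie2, Picard, FastQC and deepTools, without versions. The sources used here do not give the order of steps, the normalization, the handling of duplicates or the shift of read ends. Group means are deposited as log2 of the authors' mean normalized reads, per the file headers, and were turned back to reads. The p-value and adjusted p-value are the authors' deposited ones. The headers name the groups dmA12 and dLuc, taken as mA2 dRNA and Con dRNA because the series has 1 contrast. The 4 columns of per-library values match no sample label by name and were not used, so the fits per library that had been planned gave way to the authors' p-values.

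Peaks were called at an adjusted p under 0.05. The authors' fold is shrunken, so ratios of group means are printed. Motifs and pyrimidine runs were counted in RefSeq promoters of GRCm38.p6. Python 3.11.15, pandas 2.3.3 and numpy 2.4.6 were used. The centring was tested on simulated data whose effects were not shrunken, so that test does not cover the authors' shrunken fold. Named peaks are the called ones, those with an unadjusted p under 0.05, the 5 strongest and 5 weakest promoters, the 5 highest and 5 lowest differences above 20 reads, the Rpsa and Rplp promoters, the 3 genes with most peaks and up to 3 peaks per pathway list. Promoters on X, Rps23, Rpl11, Rpl5, the peaks of neighbouring genes and the sequences of the second set were chosen after values were seen. One gene that the rule for named peaks takes is counted but not reported here by name. The members and lists were chosen with earlier results of these data known.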

Additional observations from a re-analysis of the deposited data

How the results depend on the processing

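The counts of 3 higher and 1 lower called member peaks held with an adjusted p under 0.01 or 0.1, and at 6 centrings. The 3 planned centrings shifted the authors' shrunken fold, whose median over all peaks is 0.0093. The called peaks have folds of 1.25 to 1.29 in size, so these centrings could hardly change a call. The other 3, added after the data were seen, centred the differences of group means. Leaving out paralogs ending in l, or peaks under 20 reads, also kept the counts, but no called peak was of either kind. Within 50 kb of the start site 1 higher and 0 lower were left, and within 3 kb 0 and 0, because the called peaks are distal. The median difference of all member peaks, 0.03, became -0.0607 relative to all peaks, -0.0718 relative to the chromosome and -0.0440 relative to peaks of like abundance. That of promoter peaks, 0.04, became -0.0492 relative to all peaks and -0.0271 relative to like abundance, and that of peaks outside promoters, 0.0061, became -0.0856 relative to all peaks. Each follows from the median that is subtracted. No single peak with an unadjusted p under 0.05 changed its call or direction in 72 comparisons under these centrings. Those on the shrunken fold could change little. With the authors' fold in place of the difference of means each peak kept its direction. Over all peaks, 81.5% of calls were higher, and 68.9% when differences of group means were centred on their median (1307 higher and 590 lower). No paired analysis was possible because the columns in use are group means that carry no replicate number. Leaving out each replicate, a replicate block and another pseudocount were not run for the same reason. The authors' means carry no depth, so low peaks such as those under 50 reads have an unknown error.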
